A study of Homo sapiens with 12 samples.

Results

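The 9 genes described here encode TGF-beta family ligands, a matrix protein that is related to the carriers of latent TGF-beta, feedback inhibitors and widely used target genes: TGFB1, TGFB2, INHBA, LTBP2, SMAD7, SKIL, PMEPA1, TGFBI and BHLHE40. They were taken by gene symbol from tables of 19677 genes, and each symbol matched 1 row. TGF-beta ligands are secreted in a latent form, are held in the extracellular matrix by latent TGF-beta binding proteins, and are released by integrins and proteases. The active ligand brings together type I and type II receptors, which phosphorylate SMAD2 and SMAD3. These enter the nucleus with SMAD4 and raise the transcription of target genes, among them the pathway's own inhibitors SMAD7, SKIL and PMEPA1. In ovarian carcinoma the pathway is known for its part in invasion, matrix production and the change from an epithelial to a mesenchymal state.

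RNA-seq was done on CAOV3, an established human line of high-grade serous ovarian carcinoma, given as wild type in the labels and grown with 10% foetal bovine serum in all 12 libraries. The 4 groups of 3 libraries were a DMSO control, 10% ovarian cancer ascites with DMSO, 200 uM bezafibrate, and ascites together with bezafibrate (the combination). Ascites, which builds up in the peritoneal cavity during ovarian cancer, is a fluid rich in proteins and lipids, and bezafibrate is a lipid-lowering drug that activates the PPAR nuclear receptors. The treated groups are labelled as exposed for 16 h, no time is given for the control, and DMSO is not named for the bezafibrate group. The labels do not say whether the replicates were separate cultures or how many ascites samples were used, so p-values measure only the spread between these libraries.

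Total counts ran from 11831093 to 18762759 per library. Along the second principal component, which carried 9.88% of the variance, combination replicate 3 stood apart from the other 11 libraries, so the change in TGFB2 is also given without it. The epithelial keratins KRT7 and KRT19 were at 762 and 600 CPM (counts scaled to the TMM-adjusted library size) in the control, EPCAM was at 27.6 CPM and CDH1 at 18.6 CPM. The serous lineage markers PAX8, WT1, MUC16 and MSLN were each under 1 CPM there, at 0.378, 0.124, 0.0983 and 0.621 CPM. Of 7 leukocyte markers 5 had no count in any library, as had 3 of 4 platelet markers, including the libraries with ascites. Over all groups the 7 leukocyte markers summed to between 2.155 and 4.925 CPM per library.

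The promoters of the 2 TGF-beta ligands are shown because TGFB1 and TGFB2 differed in their response to bezafibrate. Each sequence holds the 250 bases before the RefSeq transcription start (assembly GRCh38.p14), read on the gene's own strand, with motif letters in capitals. The TGFB2 promoter lies at chr1:218345086-218345335 on the plus strand and the TGFB1 promoter at chr19:41353923-41354172 on the minus strand. These RefSeq starts differ from the GENCODE 29 gene starts given below. For TGFB2 the GENCODE 29 start, chr1:218346235, lies downstream of the window shown.
TGFB2: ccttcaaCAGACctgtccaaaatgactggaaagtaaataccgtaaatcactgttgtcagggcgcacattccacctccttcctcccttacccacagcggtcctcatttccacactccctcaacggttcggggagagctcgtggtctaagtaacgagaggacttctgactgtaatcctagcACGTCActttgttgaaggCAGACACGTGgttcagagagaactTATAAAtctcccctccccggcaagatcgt
TGFB1: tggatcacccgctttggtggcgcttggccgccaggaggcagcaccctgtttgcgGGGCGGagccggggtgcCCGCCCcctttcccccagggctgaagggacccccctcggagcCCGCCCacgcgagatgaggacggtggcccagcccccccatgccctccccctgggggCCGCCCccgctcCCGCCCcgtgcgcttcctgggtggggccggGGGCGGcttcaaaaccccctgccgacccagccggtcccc

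The capitals mark 5 motifs, searched on both strands. The TATA box, which places the start of transcription, was read as TATAAA. The E-box, bound by basic helix-loop-helix factors, was read as CACGTG. The core of the cyclic AMP response element was searched for as TGACGT. The GC box, bound by SP family factors, was taken as GGGCGG, and the SMAD-binding element was searched for as its short form CAGAC. TGFB2 holds a TATA box at bases -29 to -24 from the start, an E-box at -49 to -44, the cyclic AMP core at -71 to -66 on the other strand, and CAGAC at -53 to -49 and -243 to -239. The nearer CAGAC shares its last base with the E-box. TGFB1 holds 6 GC boxes and none of the other 4 motifs. GC content was 50.4% in the TGFB2 promoter and 76.8% in the TGFB1 promoter, against a median of 58% over 35116 promoters. Of those promoters 10.7% hold the TATA box letters, 6.34% the E-box, 7.1% the cyclic AMP core, 42.6% the GC box and 38% the SMAD element. The PPAR response element was searched for only as an exact direct repeat with a single spacer base. That form was in 0.0171% of all promoters and in none of the 14 promoters listed for the 9 genes. Repeats with any other letter were not searched for, so the absence of PPAR elements from these promoters is not shown. A match describes letters in this window and is not evidence of binding. Members not called in either comparison of bezafibrate hold some of the same letters as TGFB2. SKIL holds 3 cyclic AMP cores and 1 CAGAC, BHLHE40 an E-box and 1 CAGAC, and 1 of the SMAD7 promoters a TATA box and 1 CAGAC. LTBP2 and TGFBI hold GC boxes only, like TGFB1. Whether these letters bear on the response to bezafibrate was not tested.

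**Figure D1:**
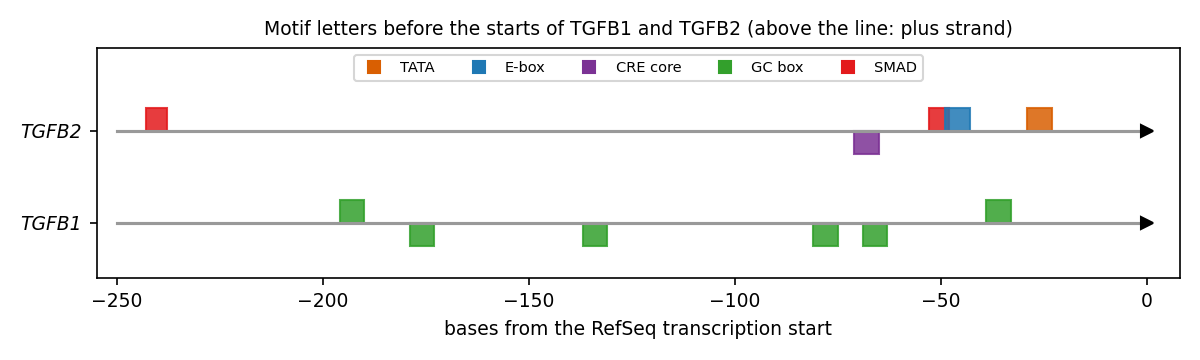
Positions of the motif letters in the 250 bases before the RefSeq starts of TGFB2 and TGFB1, in bases from the start; boxes above each line are on the gene's own strand and boxes below on the other strand. TGFB2 has TATA, E-box, cyclic AMP core and SMAD letters close to its start and 1 more SMAD match near the far end, and TGFB1 has 6 GC boxes only.

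Among the ligands, TGFB2 was the member that bezafibrate lowered. TGFB2 encodes TGF-beta 2, a ligand that depends on the co-receptor betaglycan for efficient receptor binding, and lies at chr1:218346235-218444619 on the plus strand (GRCh38). In the control libraries TGFB2 stood at 57.4, 58.8 and 58.3 CPM, and in the bezafibrate libraries at 36.1, 38.9 and 35.9 CPM. With ascites the 3 libraries were at 59.0, 57.6 and 60.7 CPM, and the combination libraries at 35.0, 36.8 and 38.8 CPM. All 6 libraries with bezafibrate were below all 6 without it, the highest of the former at 38.9 CPM and the lowest of the latter at 57.4 CPM.

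The TGFB2 group means were 58.2 ± 0.694 CPM in control, 59.1 ± 1.56 in ascites, 37.0 ± 1.68 in bezafibrate and 36.8 ± 1.9 in the combination (SD, n = 3 each). Bezafibrate against control gave a log2 fold change of -0.65 (SE 0.0539, 95% interval -0.76 to -0.54), a change of -36.3%, with an adjusted p of 2.79e-12 in edgeR's quasi-likelihood test. In the presence of ascites, the combination against ascites alone gave -0.69 (SE 0.0556, 95% interval -0.80 to -0.58), a change of -38.0%, with an edgeR adjusted p of 1.45e-12. Without combination replicate 3 the TGFB2 value in that comparison was -0.73. The 2 estimates did not differ detectably: their difference, the interaction of drug and ascites, was -0.04 on the log2 scale (95% interval -0.20 to 0.12, edgeR adjusted p = 0.999). Ascites itself moved TGFB2 by 0.03 (95% interval -0.08 to 0.13, edgeR adjusted p = 0.986), and adding ascites to bezafibrate by -0.01 (95% interval -0.13 to 0.10, edgeR adjusted p = 1).

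Against all genes, the fall of TGFB2 was in the outer part of the distribution but not at its end. Under bezafibrate alone 193 of 12470 tested genes had a lower log2 fold change than TGFB2, of which 96 were among the 942 genes called lower. With ascites present the numbers were 202 genes with a lower value, 104 of them among 909 called lower. TGFB2 overlaps the non-coding transcript TGFB2-OT1 on the same strand over 26.6% of its exon bases, and the tables hold no separate row for that transcript.

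TGFB1, the ligand made by most cell types and the most abundant of the 9 genes per kilobase of exon, showed no detectable change. TGFB1 lies at chr19:41301587-41353911 on the minus strand. Its libraries stood at 266, 253 and 264 CPM in control, 257, 274 and 264 in ascites, 249, 262 and 270 in bezafibrate, and 267, 265 and 237 in the combination. The groups overlapped in every comparison. Bezafibrate changed TGFB1 by -0.003 on the log2 scale without ascites (95% interval -0.08 to 0.08, edgeR adjusted p = 0.978) and by -0.05 with it (95% interval -0.13 to 0.03, edgeR adjusted p = 0.477). The lowest fold within the interval for TGFB1 with ascites was 0.915, where the highest within the interval for TGFB2 was 0.67. TGFB1 shares 6.64% of its exon bases with HNRNPUL1 on the opposite strand, and whether the counting used strand is not given in the sources used here.

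INHBA encodes the beta A subunit of activin A and inhibin A, ligands that signal through the same SMAD2 and SMAD3. It lies at chr7:41667168-41705834 on the minus strand and was close to absent from these cells. The 12 libraries held 29 INHBA counts in all, between 1 and 7 each. Summed over 3 libraries the counts were 12 in control, 6 in ascites, 3 in bezafibrate and 8 in the combination, or 0.293, 0.144, 0.0603 and 0.197 CPM. The exact Poisson intervals, which cover counting error only, were 0.152 to 0.513 CPM in control and 0.0124 to 0.176 CPM in bezafibrate. INHBA was removed by the filter on low counts. Without that filter, bezafibrate against control gave an edgeR adjusted p of 0.155 for INHBA, so no change was called at this depth.

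LTBP2 encodes latent TGF-beta binding protein 2, a matrix protein of the family that anchors latent TGF-beta but itself known not to bind the latent ligand. It lies at chr14:74498170-74612378 on the minus strand, and its level was low. LTBP2 was at 5.66, 5.29 and 5.08 CPM in control and at 6.93, 6.67 and 6.39 CPM in bezafibrate. With ascites it was at 5.13, 5.00 and 5.18 CPM, and in the combination at 5.57, 7.47 and 6.33 CPM. The bezafibrate libraries were thus all above the matching libraries without the drug, in each setting.

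The LTBP2 difference did not pass the test in either setting. Its log2 fold change was 0.32 without ascites (SE 0.137, 95% interval 0.04 to 0.60, edgeR adjusted p = 0.114) and 0.32 with ascites (SE 0.143, 95% interval 0.03 to 0.61, edgeR adjusted p = 0.126). Averaged over both settings, a comparison added after these values were seen, the effect was 0.32 (SE 0.0991), with an edgeR adjusted p of 0.0129. This averaged effect called 2 of the 8 tested members, LTBP2 and TGFB2, where it called 28.3% of all genes. The LTBP2 call was lost with DESeq2, at an adjusted p of 0.0526, and without combination replicate 2, where LTBP2 gave 0.265 (edgeR adjusted p = 0.0525). The library counts for LTBP2 ranged from 64 to 124.

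The feedback inhibitors SMAD7, SKIL and PMEPA1 are induced by TGF-beta and restrain it: SMAD7 competes for the receptors and brings ubiquitin ligases to them, SKIL (SnoN) represses SMAD target genes in the nucleus, and PMEPA1 withholds SMAD2 and SMAD3 from the receptor. None of them was called in any comparison. SMAD7 (chr18:48919853-48952052, minus strand) had group means of 49.7 ± 3.25 CPM in control, 47.4 ± 1.83 in ascites, 48.9 ± 2.41 in bezafibrate and 48.2 ± 3.12 in the combination (SD, n = 3 each). Its libraries overlapped in all 4 groups, and the bezafibrate effect was -0.02 (95% interval -0.14 to 0.09) without ascites and 0.02 (95% interval -0.11 to 0.14) with it.

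SKIL (chr3:170357678-170396835, plus strand) was at 119, 129 and 123 CPM in control, 113, 115 and 121 in ascites, 126, 124 and 124 in bezafibrate, and 120, 129 and 123 in the combination. The ascites libraries were the low ones, though their highest value passed the lowest control. The combination against ascites gave 0.09 for SKIL (95% interval 0.01 to 0.18, edgeR adjusted p = 0.133), and ascites against control gave -0.08 (95% interval -0.17 to 0.002, edgeR adjusted p = 0.842).

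PMEPA1 (chr20:57648392-57711536, minus strand) stood at 82.6, 84.6 and 85.6 CPM in control, 85.2, 85.6 and 84.7 in ascites, 75.8, 78.9 and 81.2 in bezafibrate, and 84.0, 84.3 and 85.4 in the combination. The bezafibrate group alone was low, and it overlapped neither the control nor the combination. Bezafibrate against control gave -0.10 for PMEPA1 (95% interval -0.19 to -0.01, edgeR adjusted p = 0.106). Under upper-quartile scaling the same difference was -0.12 and was called, at an edgeR adjusted p of 0.045. The combination against bezafibrate gave 0.11 (95% interval 0.02 to 0.19, edgeR adjusted p = 0.842), and the test of whether the drug effect differed with ascites gave 0.09 (95% interval -0.03 to 0.21, edgeR adjusted p = 0.999). PMEPA1 shares 6.1% of its exon bases with the antisense transcript NKILA.

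TGFBI and BHLHE40 represent target genes outside the feedback loop. TGFBI encodes a secreted matrix protein that binds integrins and collagens and is strongly TGF-beta inducible in many cells. It lies at chr5:136028895-136063818 on the plus strand. TGFBI was at 423, 429 and 428 CPM in control, 422, 437 and 429 in ascites, 406, 420 and 415 in bezafibrate, and 426, 417 and 436 in the combination. The bezafibrate libraries were all below the control libraries, by a small margin. The effect was -0.05 on the log2 scale (95% interval -0.10 to 0.01, edgeR adjusted p = 0.321), and with ascites present it was -0.01 (95% interval -0.07 to 0.05, edgeR adjusted p = 0.885).

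BHLHE40 encodes a basic helix-loop-helix repressor that also answers to hypoxia and the circadian clock, and lies at chr3:4979116-4985323 on the plus strand. BHLHE40 was at 50.86, 50.03 and 55.52 CPM in control, 50.55, 50.04 and 52.45 in ascites, 52.81, 51.87 and 49.47 in bezafibrate, and 49.68, 48.74 and 52.94 in the combination. Its groups overlapped throughout. The bezafibrate effect on BHLHE40 was -0.02 in both settings, with 95% intervals of -0.13 to 0.09 without ascites and -0.13 to 0.09 with it.

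**Figure D2:**
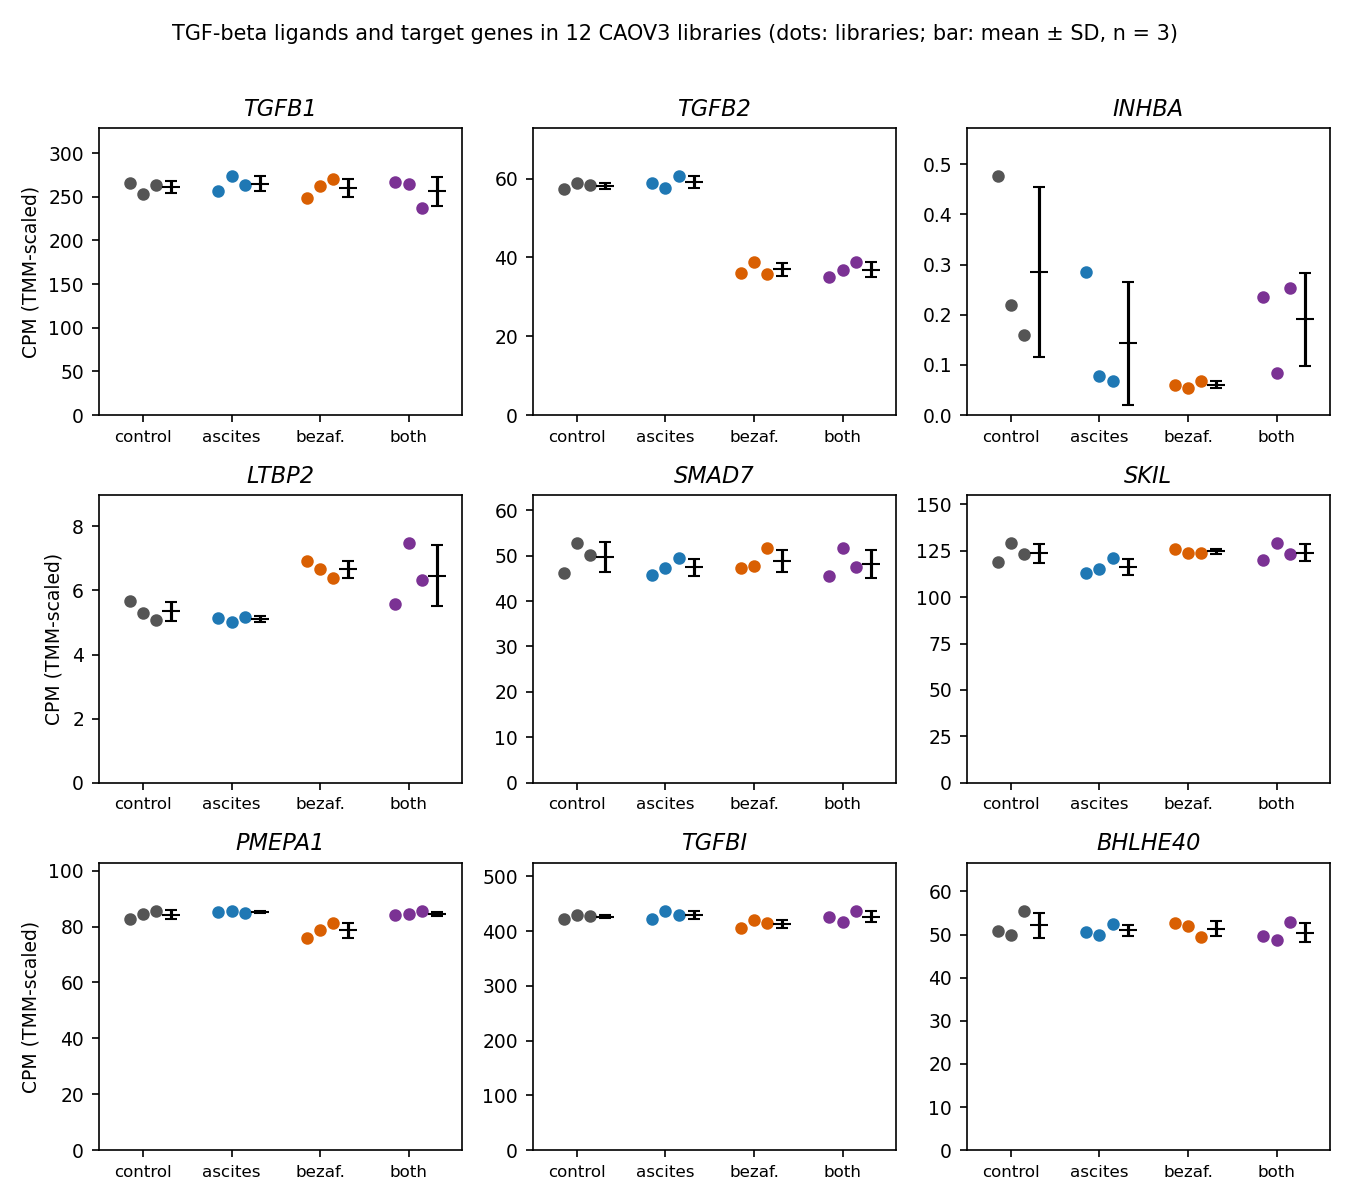
CPM of each of the 9 genes in the 12 libraries, by group, with the mean and SD of 3 libraries beside the dots; each panel has its own axis from 0. TGFB2 is lower in all 6 libraries with bezafibrate. LTBP2 is higher in bezafibrate than in control and in the combination than in ascites, though combination replicate 1 lies below control replicate 1. TGFB1, SMAD7, SKIL, PMEPA1, TGFBI and BHLHE40 show groups at like levels. INHBA, at 7 counts or fewer per library, has group means of 0.285 CPM in control and 0.0609 in bezafibrate and was removed by the filter on low counts.

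Compared per kilobase of exon, the control order was TGFB1 at 80.5 CPM per kb, TGFBI at 54.7, SKIL at 15.8, PMEPA1 at 15, BHLHE40 at 13.6, TGFB2 at 11.3, SMAD7 at 9.87, LTBP2 at 0.588 and INHBA at 0.0344. The exon length used joins all annotated isoforms, so these levels are approximate. In control no neighbours in this order overlapped over their 3 libraries, whereas SKIL and PMEPA1 overlapped in ascites, and PMEPA1 and BHLHE40 in bezafibrate. TGFB2 changed place: it stood above SMAD7 in control and ascites and below it in both groups with bezafibrate, at 7.18 CPM per kb against 9.72 in bezafibrate and at 7.15 against 9.58 in the combination.

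Counted over the 8 genes that passed the filter, 1 was called under bezafibrate against control, TGFB2, where 17.6% of all tested genes were called and 7.55% were called lower. With ascites present TGFB2 was again the 1 gene called, against 17.8% of all genes and 7.29% called lower. The median log2 fold change over the 8 genes was -0.02 without ascites and -0.01 with it, beside a median of -0.004 over all tested genes in each. For 4 of the 8 genes (TGFB2, LTBP2, PMEPA1 and TGFBI) the libraries did not overlap between bezafibrate and control, as for 33.5% of all tested genes. With ascites present this held for 2 of the 8 (TGFB2 and LTBP2), beside 30.5% of all genes. The combination against control also called TGFB2 alone, at -0.67 (SE 0.0559, edgeR adjusted p = 4.34e-12), where 18.2% of genes were called and 7.96% were called lower. It shares the control libraries with the comparison without ascites and the combination libraries with the comparison in its presence.

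Ascites changed none of the 8 genes detectably. Ascites against control called 0 of 8 with edgeR, where 0.0882% of all genes were called. An unadjusted edgeR p under 0.05 was found for 0 of 8, beside 749 of 12470 genes. None of the 8 had libraries that did not overlap there, where 12.7% of all genes had. Adding ascites to bezafibrate called 0 of 8, where 0.128% of all genes were called. PMEPA1 alone had an unadjusted edgeR p under 0.05, at 0.0182, beside 597 of 12470 genes. It alone had libraries that did not overlap, where 9.27% of all genes had. The interaction called 0 of 8 and 0% of all genes. None of the 8 had an unadjusted edgeR p under 0.05 there, beside 445 of 12470 genes. DESeq2 likewise called 0 of the 8 in these 3 comparisons.

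**Figure D3:**
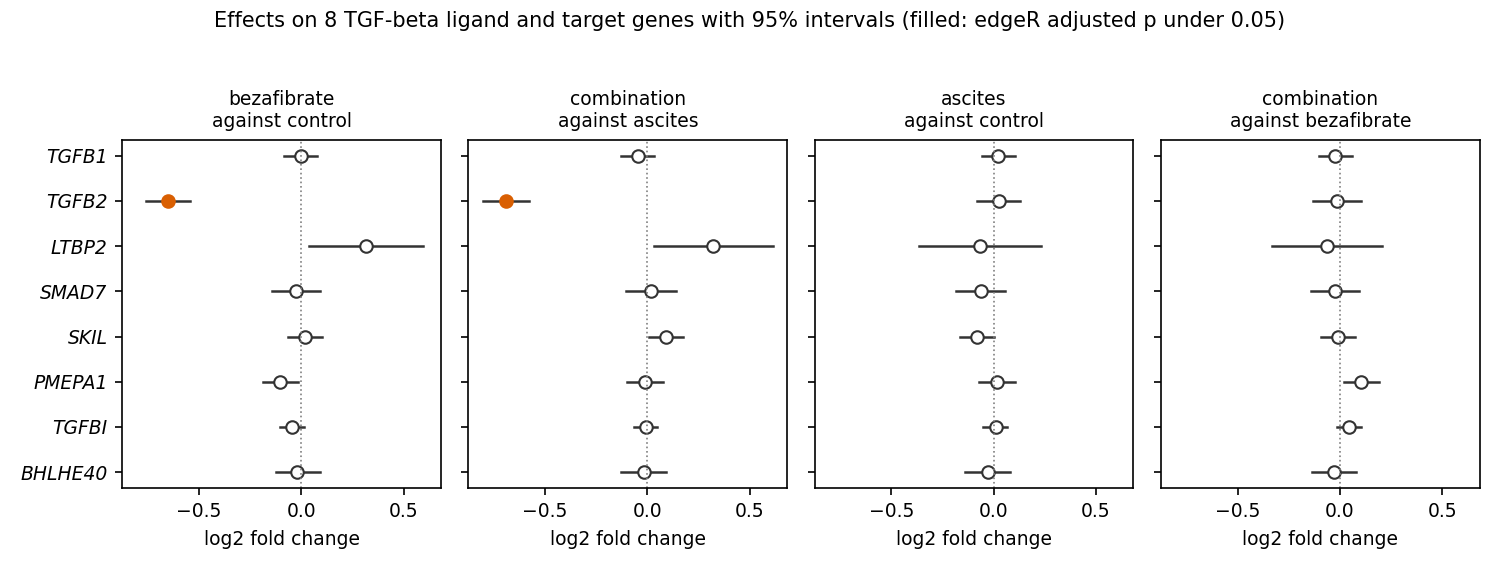
Log2 fold changes of the 8 tested genes in 4 comparisons, with 95% intervals as lines; filled points have an edgeR adjusted p under 0.05. TGFB2 is filled at -0.65 and -0.69 in the comparisons of bezafibrate, LTBP2 lies at 0.32 in both with wide intervals, and no point is filled in the comparisons of ascites.

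The genes whose profile over the 12 libraries lay nearest to TGFB2 were PKP2, ARG2, DKK1, PRSS23 and RGS2, by the root mean square difference of log2 CPM centred on each gene's mean. PKP2 encodes the desmosome protein plakophilin 2 and was at a distance of 0.045 from TGFB2. ARG2, mitochondrial arginase, was at 0.0509, and DKK1, a secreted inhibitor of WNT signalling, at 0.057. PRSS23, a secreted serine protease, was at 0.0572, and RGS2, a regulator of G protein signalling, at 0.0587. Over the 11858 genes compared the median distance was 0.348. The 7 other tested members lay between 0.312 (PMEPA1) and 0.502 (LTBP2) from TGFB2, so none of them shared its profile closely. Under bezafibrate the log2 fold changes of these 5 genes ran from -0.70 to -0.64, beside -0.65 for TGFB2. With ascites present they ran from -0.67 to -0.55, beside -0.69. The 5 genes were picked for nearness over these same libraries, so their like fold changes follow from the choice.

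**Figure D4:**
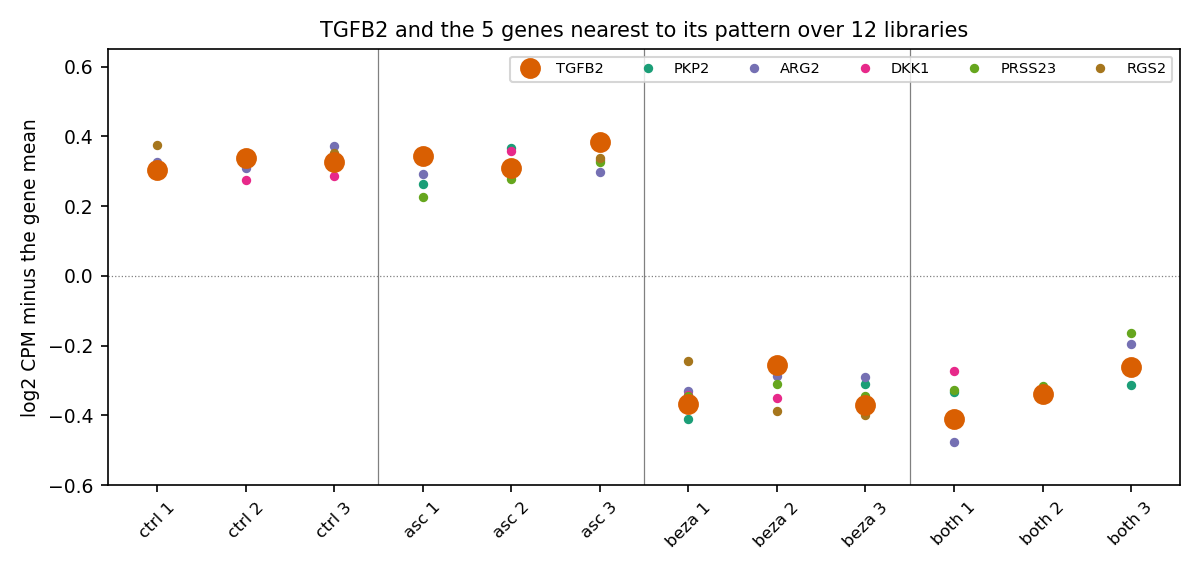
Log2 CPM minus the gene's mean for TGFB2 (large points) and the 5 genes of nearest profile, in each of the 12 libraries. All 6 genes lie above 0 in the 6 libraries without bezafibrate and below 0 in the 6 with it. The 5 genes were chosen by this profile, so their likeness to TGFB2 is not a separate result.

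The rest of the pathway was described with 6 lists of 117 genes, of which 94 were tested and some are members; LTBP2 is in 2 lists. Bezafibrate against control called 25 of the 94 higher and 17 lower, together 44.7%, beside 10.1% of all genes called higher and 7.55% called lower, and the combination against ascites 26 higher and 15 lower, together 43.6%, beside 10.5% and 7.29% of all genes. These genes and the members were chosen with earlier results of these data known, so the counts describe the lists and support nothing about them. Ascites against control called 0 of 94 with edgeR, where 5 had an unadjusted p under 0.05, beside 749 of 12470 genes.

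Among 12 tested ligands, TGFB2 was the 1 called without ascites (0 higher, 1 lower), and 3 were called with ascites (1 higher, 2 lower). These were 8.33% and 25% of the list, beside 17.6% and 17.8% of all genes. TGFB3, the third TGF-beta isoform, was low here, at 5.70 ± 0.291 CPM in control, 6.75 ± 1.21 in ascites, 4.76 ± 0.248 in bezafibrate and 4.17 ± 0.731 in the combination (SD, n = 3 each). It fell in the combination against ascites, by 0.72 on the log2 scale (SE 0.159, edgeR adjusted p = 0.000846), and gave -0.26 under bezafibrate against control (edgeR adjusted p = 0.284).

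Of 11 tested genes for latency and activation, 2 rose in each setting and none fell, and both were well expressed. That was 18.2% of the list in each setting, near the 17.6% of all genes called without ascites and 17.8% with it. LTBP1, which anchors latent TGF-beta in the matrix, averaged 44.6 ± 3.49 CPM in control and 78.9 ± 1.88 in bezafibrate (SD, n = 3 each). It rose by 0.83 without ascites (SE 0.0525, edgeR adjusted p = 2.01e-15) and by 0.90 with it (SE 0.054, edgeR adjusted p = 5.15e-16). ITGAV, the integrin alpha V chain that takes part in releasing latent ligand, rose by 0.39 and 0.47. The list median was 0.20 without ascites and 0.09 with it.

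Of 12 tested receptors, 3 rose and 1 fell without ascites, and 2 rose and 1 fell with it. Together 33.3% and 25% of the receptors were called, beside 17.6% and 17.8% of all genes. TGFBR3, which is betaglycan, rose in both, by 0.32 and 0.51. ENG, the co-receptor endoglin, rose by 0.40 without ascites and gave 0.20 with it (edgeR adjusted p = 0.204). ACVR2A, a type II activin receptor, rose by 0.34 without ascites and gave 0.22 with it (edgeR adjusted p = 0.127). The ACVR2A call was lost without control replicate 1 (0.26, edgeR adjusted p = 0.104). Among 9 tested signal transducers 0 rose and 2 fell without ascites, while 1 rose and 0 fell with it. That was 22.2% and 11.1% of the transducers, beside the same shares of all genes. SMAD1, which carries BMP signals, fell by 0.35 without ascites and gave 0.03 with it (edgeR adjusted p = 0.897). The SMAD1 call was lost with DESeq2 (adjusted p = 0.1) and without control replicate 1 (edgeR adjusted p = 0.208), bezafibrate replicate 1 (edgeR adjusted p = 0.0813) or bezafibrate replicate 2 (edgeR adjusted p = 0.142).

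Of 15 tested inhibitors, 5 rose and 3 fell without ascites, and 5 rose and 2 fell with it. Together 53.3% and 46.7% of the inhibitors were called, beside 17.6% and 17.8% of all genes. BAMBI, a decoy receptor without kinase activity, averaged 12.4 ± 1.01 CPM in control and 19.1 ± 1.81 in bezafibrate (SD, n = 3 each) and rose by 0.62 and 0.63 on the log2 scale. FSTL3, which binds activin, rose in both settings, by 0.29 without ascites and 0.37 with it. FSTL1, a secreted follistatin-like protein, fell by 0.33 without ascites and gave -0.006 with it (edgeR adjusted p = 0.977). SMAD7, SKIL and PMEPA1 are counted in this list among the genes that were not called.

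Target genes moved in both directions: of 36 tested, 15 rose and 10 fell in each setting, with medians of 0.16 without ascites and 0.12 with it. In each setting 69.4% of this list was called, beside 17.6% of all genes without ascites and 17.8% with it. ANGPTL4 rose most, by 3.6 and 3.65. It encodes a secreted inhibitor of lipoprotein lipase and is known both as a TGF-beta target and as a direct PPAR target. The cell cycle inhibitor CDKN1A rose by 1.18 and 1.13, RHOB, a small GTPase, by 0.98 and 0.90, TSC22D1, a leucine zipper regulator, by 0.90 and 0.90, and ADAM19, a membrane protease, by 0.79 and 1.00.

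Other target genes fell. CCN2, a matricellular growth factor, averaged 136 ± 5.58 CPM in control and 69.5 ± 1.5 in bezafibrate (SD, n = 3 each) and fell by 0.97 without ascites and by 0.80 with it. The collagen gene COL1A1 fell by 0.68 without ascites and by 0.69 with it. EDN1, endothelin 1, at a mean of 1.32 CPM over the 12 libraries, fell by 1.49 with ascites and gave -0.82 without it (edgeR adjusted p = 0.0542). No list gene was called for a difference between these settings: the interaction called 0 of 94 with edgeR and 0 with DESeq2. Of the 94, 4 had an unadjusted edgeR p under 0.05, beside 445 of 12470 genes. CCN2 was also the 1 list gene called in the combination against bezafibrate, at 0.23 (SE 0.0451, edgeR adjusted p = 0.0139), and is named for that after its value was seen. That list count was 0 when bezafibrate replicate 1, bezafibrate replicate 2 or combination replicate 2 was left out, and 2 without combination replicate 3. TGFBI and BHLHE40, which were not called, stood among targets that rose and targets that fell.

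Genes listed as markers of fibroblasts and of epithelium also moved under bezafibrate in these libraries of 1 cell line. Of all tested genes, 7.55% were called lower under bezafibrate without ascites and 7.29% with it. Of 7 fibroblast markers 4 were tested, COL1A1 among them, and all 4 were called lower under bezafibrate in both settings. Their list summed to 231.8 to 244.1 CPM per library in control, 229.2 to 236.2 in ascites, 187.0 to 199.5 in bezafibrate and 184.1 to 199.2 in the combination, most of it from LUM. The defining fibroblast markers COL1A2, PDGFRB and DCN were each under 1 CPM in every group. Of 10 epithelial markers 7 were tested, of which 4 rose and 0 fell under bezafibrate without ascites, and 3 rose and 0 fell with it. Over all genes 10.1% were called higher without ascites and 10.5% with it. PAX8, at 0.378 CPM in control, was called only without ascites (edgeR adjusted p = 0.44 with it). CDH1, the epithelial cadherin, rose by 1.51 without ascites (edgeR adjusted p = 1.49e-19) and by 1.69 with it (edgeR adjusted p = 2.33e-20), while the keratins KRT8 and KRT18 gave -0.04 and -0.05 without ascites and were not called. The epithelial list summed to 6153 to 6275 CPM per library in control, 6306 to 6477 in ascites, 6408 to 6726 in bezafibrate and 6876 to 6974 in the combination. The part of these markers in the TGF-beta results was not tested, and in bulk RNA fewer cells of a type and less RNA per cell cannot be told apart.

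**Figure D5:**
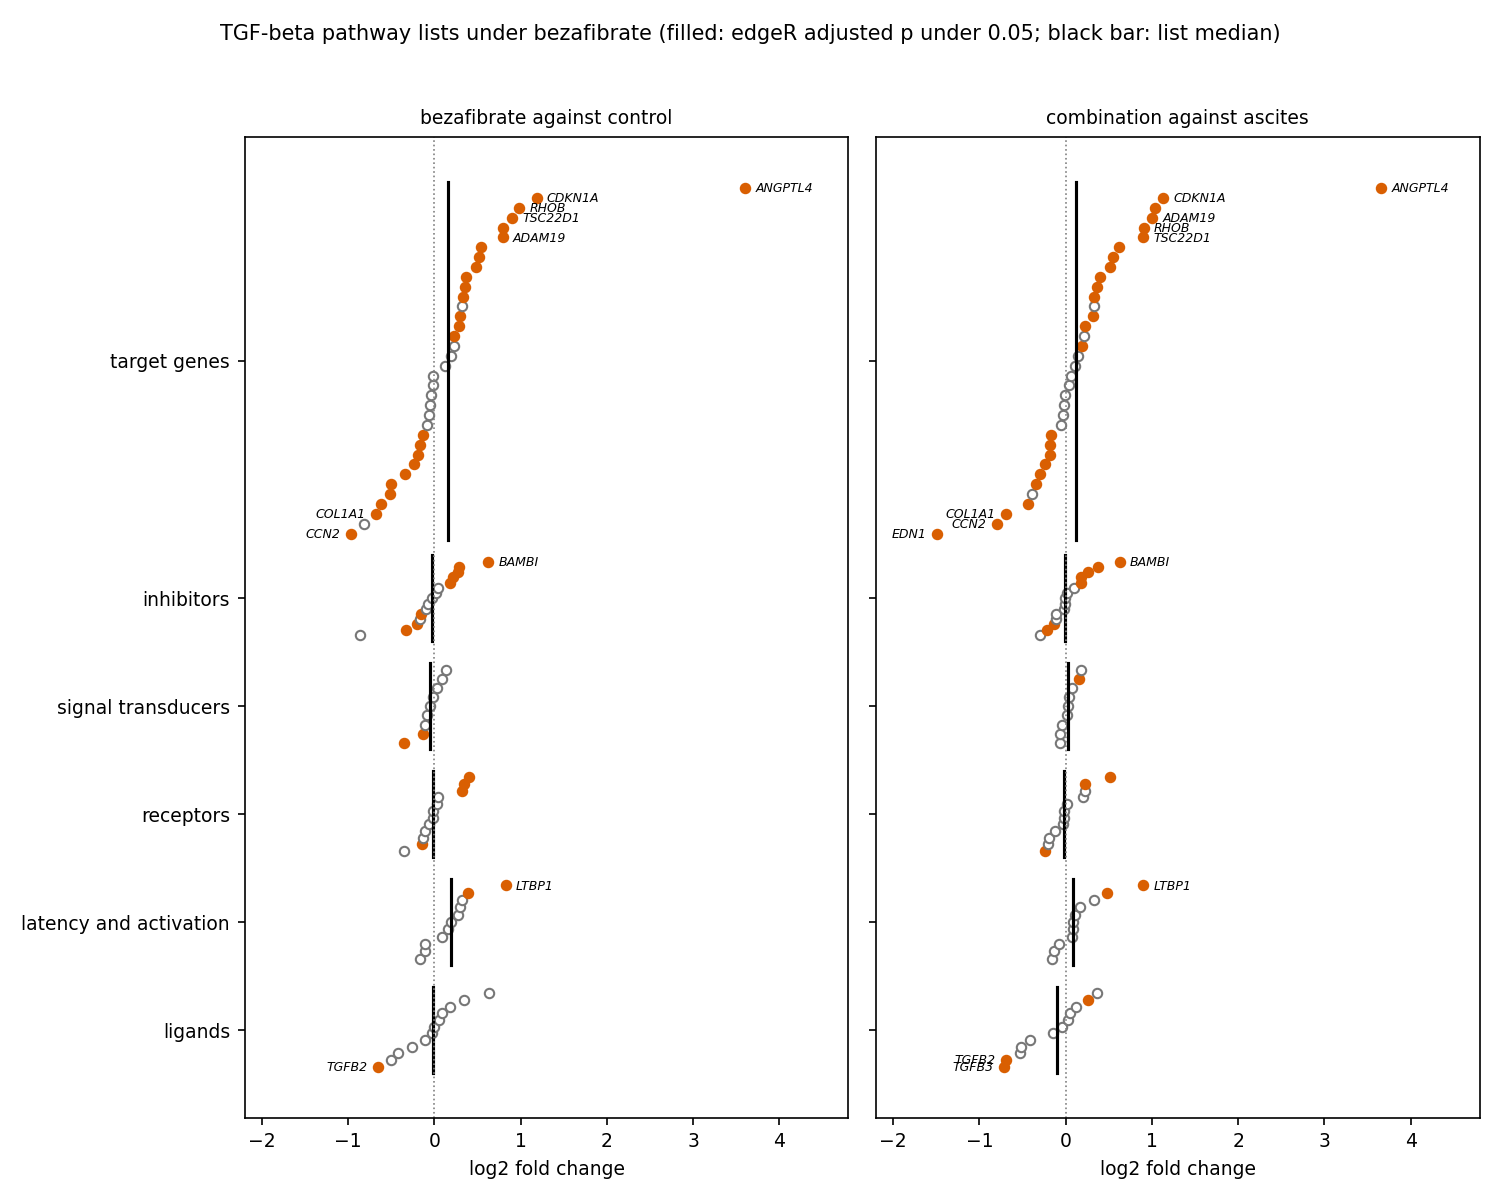
Log2 fold changes of the tested genes of the 6 pathway lists under bezafibrate, without ascites (left) and with it (right); filled points have an edgeR adjusted p under 0.05 and the black bar is the list median. Target genes spread to both sides of 0 with ANGPTL4 at 3.6 and 3.65, while TGFB2 is the called point of the ligand list on the left and TGFB2 and TGFB3 the called points below 0 on the right.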

How the data were processed

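The deposited values are counts per gene in 12 tables, 1 per library. The submitters' processing notes name Trimmomatic 0.39, STAR 2.7.9a, RSEM 1.3.3, DESeq2 1.28.1 and build GRCh38; the annotation release, the strand setting and any rounding are not given in the sources used here. Gene positions are from GENCODE 29.

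The counts were tested with edgeR 4.0.16 in R 4.3.3: TMM scaling, a filter at a count of 10 and a total of 15 that kept 12470 of 19677 genes (at least 99.96% of counts), a model with 4 groups of 3 and quasi-likelihood F tests, with Benjamini-Hochberg adjustment over all tested genes and a threshold of 0.05. The standard error is the log2 fold change over the root of F. CPM are TMM-scaled. Common biological variation between libraries was 3.06%. The method was also run on simulated counts drawn with the same spread for every gene, so that run does not cover genes of unequal spread. Alternatives in scaling were RLE size factors in edgeR, upper-quartile scaling and library totals only. The filter was replaced by no filter or by a mean of at least 1 CPM. Other alternatives were DESeq2 1.42.0, a replicate block, fits of the compared groups only, and leaving out each library.

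The members and the pathway and marker lists were chosen with earlier results of these data known. List genes are named where called, averaging 1 CPM or more and moving by at least 0.3 on the log2 scale, up to 8 per list and comparison. A list gene that met this rule is not reported here. The 5 genes of nearest profile were taken for the member with the largest bezafibrate effect.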

Additional observations from a re-analysis of the deposited data

How the results depend on the processing

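The TGFB2 call held in every alternative run for both comparisons of bezafibrate, with log2 fold changes from -0.69 to -0.63 without ascites and from -0.73 to -0.65 with it. Over the members, 861 of 864 alternative values kept their call, and 62 changed sign among results that were never called. Upper-quartile scaling raised the members called under bezafibrate from 1 to 2 (PMEPA1), and for the effect averaged over ascites DESeq2 gave 1 in place of 2, as did leaving out combination replicate 2 (range over left-out libraries 1 to 2). Of the 46 results for named list genes 43 kept their call throughout; the exceptions were SMAD1 and ACVR2A, given above, and TGFB3 in the combination against control, whose call was lost in 8 of 14 alternatives.

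Counts of genes called for ascites rested on the settings. Ascites against control called 11 genes, 59 with no filter, 33 with the compared groups alone and 3 to 5 with a library left out. The combination against bezafibrate called 16, 52 with no filter, 7 with the compared groups alone and 9 to 28 with a library left out, and its list genes went from 1 to 0 with the compared groups alone and to 0 to 2 with a library left out. The interaction called 0, 36 with no filter, 1 with DESeq2, 1 with a replicate block and 0 to 3 with a library left out. The cause was not tested. With the replicate block, bezafibrate against control called 2145 genes and the combination against ascites 2154, and no member changed its call. It is not known whether libraries of the same number shared more than that number. Over 18 such pairs their deviations from the group means correlated between -0.135 and 0.061, and pairs of unlike number between -0.071 and 0.179. Of 12 libraries, 1 correlated best with its own number. INHBA, at 1 to 7 counts per library, was removed by the filter on low counts, and LTBP2 held 64 to 124 counts per library.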
